A study of Homo sapiens with 15 samples.

Results

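The FK506-binding proteins (FKBPs) are the immunophilins that bind the drugs FK506 and rapamycin and that turn the peptide bond before proline. The 10 genes FKBP5, FKBP4, FKBP1A, FKBP2, FKBP3, FKBP8, FKBP9, FKBP10, FKBP11 and FKBP14 were taken by name from an expression table of 17272 genes, and all 10 were found. The table came from LNCaP cells, an established line of human prostate cancer cells that grow in response to androgen. Steroids were withdrawn for 2 days with charcoal-stripped serum. The cells then received the synthetic androgen R1881 at 1 nM, either without darolutamide, an antiandrogen, or together with it at 2 µM. The labels name DMSO beside R1881 for the libraries without darolutamide, which are called R1881 alone below. RNA was harvested after 22 h and sequenced from 10 libraries with R1881 alone and 5 libraries with both compounds, called the combination below. The labels number the libraries of each group as replicates, and the methods of the paper call them biological replicates. Neither says whether they came from separate cultures, so p-values measure the spread between libraries only. There was no group without R1881 and none with darolutamide alone.

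FKBP5 (FKBP51) and FKBP4 (FKBP52) carry a domain of tetratricopeptide repeats that docks onto the chaperone HSP90, where each can join a steroid receptor before hormone binding. FKBP4 is known to favour receptor activity, while FKBP5 is a long-known androgen target in prostate cells and acts with HSP90 on steroid receptors. FKBP1A (FKBP12) is the small founder of the family and forms the complexes through which FK506 blocks calcineurin and rapamycin blocks mTOR. FKBP3 lies in the nucleus, FKBP8 is anchored in the outer membrane of mitochondria, and FKBP2, FKBP9, FKBP10, FKBP11 and FKBP14 enter the endoplasmic reticulum (ER), where some of them act on collagen and other secreted proteins.

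Values are given in CPM, the unit the authors gave their scaled counts. Each library held 15830745 to 25317567 reads assigned to genes, and the least covered gene of the 10 had 265 reads in its lowest library. Library numbers in the labels ran from 51 to 55 and from 71 to 75 for R1881 and from 86 to 90 for the combination. No run of numbers held both treatments, so the treatment and anything shared by libraries 86 to 90 cannot be told apart. Libraries also differed in how GC-rich genes read against GC-poor genes. The GC contrast of a library, the mean log2 deviation from the group of the 1366 genes with the highest GC content less that of the 1366 with the lowest, was 1.06 in combination replicate 4, -0.65 in combination replicate 3 and 0.64 in R1881 replicate 6, against -0.38 to 0.34 in the other 12 libraries. These 3 libraries stood apart, and results are given with and without them or with the GC trend removed where that changed a call.

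FKBP5 lies on chromosome 6 (chr6:35573585-35728583 on GRCh38, minus strand). The windows around its RefSeq transcription starts (250 bases before to 50 after, GRCh38.p14) are printed here because FKBP5 was the member with the largest change, and AGAACA, 1 arm of the palindrome that steroid receptors bind, on either strand, was sought in them and is given in capitals. The upstream start is at chr6:35728534-35728833 and the downstream start at chr6:35688866-35689165, both read on the minus strand from 5′ to 3′.
FKBP5 upstream start: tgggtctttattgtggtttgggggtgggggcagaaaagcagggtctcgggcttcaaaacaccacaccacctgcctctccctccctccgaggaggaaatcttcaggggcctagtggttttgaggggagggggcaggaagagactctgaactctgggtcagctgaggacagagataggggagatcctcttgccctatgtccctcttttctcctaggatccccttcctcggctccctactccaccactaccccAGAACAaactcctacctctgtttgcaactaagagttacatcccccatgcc
FKBP5 downstream start: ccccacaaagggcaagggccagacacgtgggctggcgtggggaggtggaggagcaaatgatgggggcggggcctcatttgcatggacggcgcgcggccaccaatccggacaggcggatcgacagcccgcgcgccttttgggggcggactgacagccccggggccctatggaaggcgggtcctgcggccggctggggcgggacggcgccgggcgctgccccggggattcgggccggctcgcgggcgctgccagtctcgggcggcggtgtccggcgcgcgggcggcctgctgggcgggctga
The upstream window held 1 such arm, whose first base was the start itself, and the downstream window held none. Its GC content was 55.7%, against 76% in the downstream window. AGAACA was found in 14.8% of the 34796 RefSeq windows of the same length, and among the 6 members with an entry (FKBP5, FKBP1A, FKBP2, FKBP3, FKBP9 and FKBP11, 12 windows in all) it was found in FKBP5 alone. The full palindrome of GAACA and TGTTC spaced by any 3 bases was in none of these 12 windows and in 0.023% of all windows. A match is a run of letters and not a bound site, and sites farther from the starts were not searched.

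With darolutamide, 3 of the 10 genes were lower, 1 was higher and 6 failed the test. FKBP5 fell to 10.1% of its R1881 level, FKBP11 fell by 0.49 and FKBP3 by 0.11 on the log2 scale, and FKBP9 rose by 0.42. The test was limma's trend test on log2(CPM + 0.5), fitted on all 17272 genes, two-sided, with a gene called at a Benjamini-Hochberg adjusted p under 0.05. Over all genes the same test called 23.7% lower and 22.8% higher, so 3 lower and 1 higher of 10 do not set the family apart from the whole table. In FKBP5 and FKBP11 all 5 combination values were under the lowest of the R1881 values, as in 12.6% of all genes, and in FKBP9 all 5 were over the highest, as in 10.8%. The median log2 fold change of the 10 was -0.06, and that of all genes was 0.00. RNA was measured in bulk, so a gene's level per cell and the number of cells that make it cannot be told apart.

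**Figure D1:**
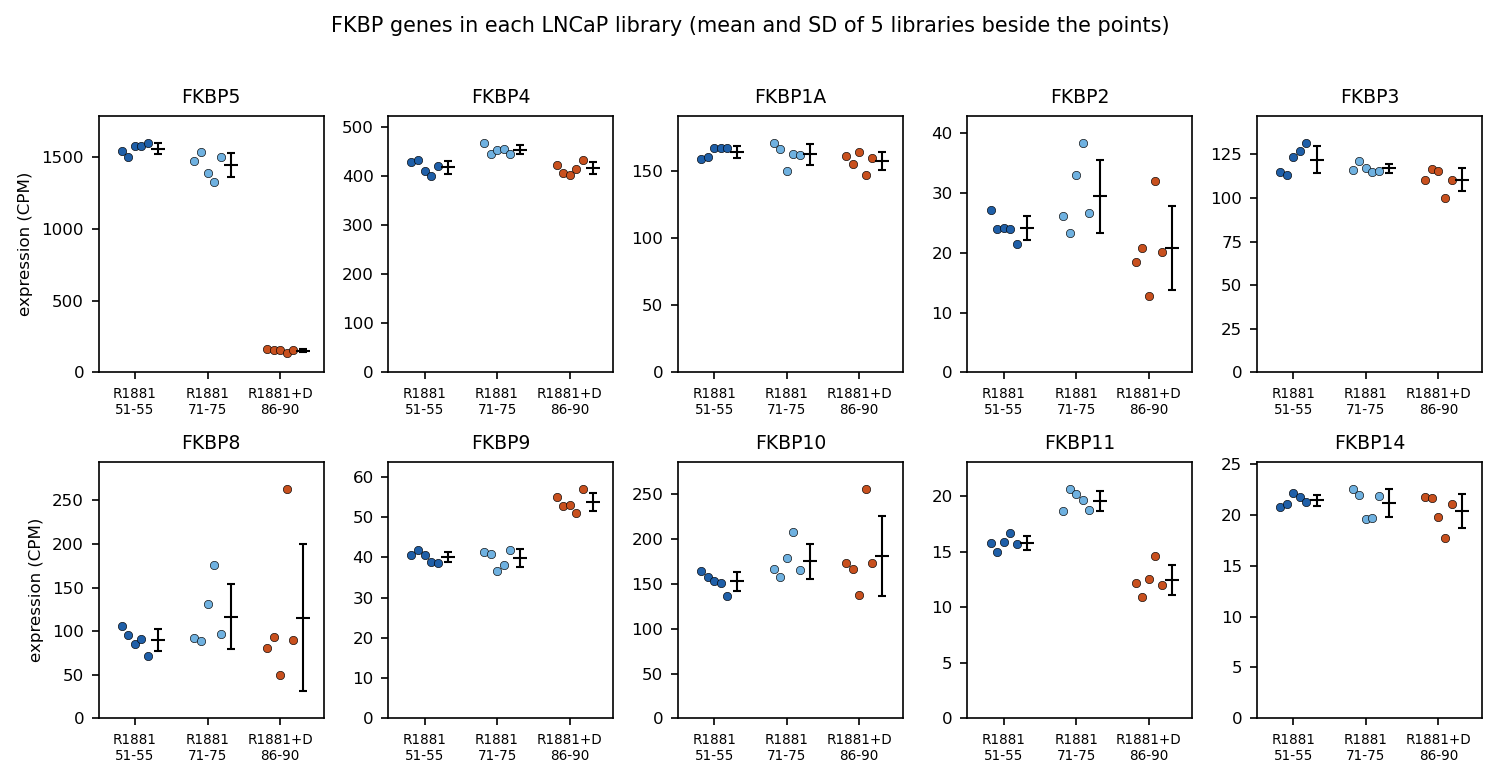
Expression in CPM (vertical axis, from 0, own scale for each gene) of the 10 FKBP genes, with 1 point per library in the 3 runs of library numbers and the mean ± SD of each run (n = 5) beside the points. FKBP5 lies at 1324 to 1597 CPM with R1881 and at 133 to 162 CPM with the combination, while FKBP8, FKBP2 and FKBP10 spread most, relative to their level, among the combination libraries.

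FKBP5, the co-chaperone of the receptor complex, had a lowest value of 1324, a median of 1516 and a highest value of 1597 CPM in the 10 libraries with R1881. In combination replicates 1 to 5 it was 162, 156, 154, 133 and 155 CPM. The groups lay far apart, with no library of either between 162 and 1324 CPM. The mean fell from 1502 ± 87.4 (SD, n = 10) to 152 ± 11.1 CPM (SD, n = 5), which is 10.1% of the R1881 mean and a 9.87-fold difference. The log2 fold change was -3.30 (standard error 0.049, 95% confidence interval -3.40 to -3.20, adjusted p = 1.37e-18 from limma). Ordered from the lowest log2 fold change, FKBP5 was number 7 of 17272 genes, between TTN (-3.38) and PGC (-3.29). The genes with larger falls were STEAP4, ORM1, ORM2, NCAPD3, TUBA3D and TTN. Against either run of R1881 libraries alone, the value for FKBP5 was -3.36 (libraries 51 to 55) and -3.24 (libraries 71 to 75), and it stayed between -3.32 and -3.24 when 1 or 2 libraries were left out.

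FKBP4, which occupies the same place on HSP90 as FKBP5, did not pass the test. Its lowest, median and highest values with R1881 were 401, 439 and 467 CPM, and in combination replicates 1 to 5 it was 423, 407, 402, 415 and 433 CPM. All 5 combination values fell inside the range of the R1881 libraries. The log2 fold change was -0.07 (95% confidence interval -0.14 to 0.01, adjusted p = 0.141 from limma), so a change within these bounds remains possible. FKBP4 differed more between the runs of R1881 libraries, at 419 ± 13.1 CPM in libraries 51 to 55 and 454 ± 9.01 CPM in libraries 71 to 75 (SD, n = 5 each). The libraries 71 to 75 all lay above libraries 51 to 55 in FKBP4, as in 1.9% of all genes. Against libraries 71 to 75 alone FKBP4 was called lower with the combination (-0.13, adjusted p = 0.00751 from limma), and against libraries 51 to 55 alone its log2 fold change was -0.01 (adjusted p = 0.861).

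The ratio of FKBP5 to FKBP4 within a library does not depend on how the library was scaled. The ratio of their CPM, which is not corrected for length, was 3.46 with R1881 (range 2.90 to 3.93) and 0.366 with the combination (range 0.321 to 0.384). On the log2 scale the ratio was 1.78 ± 0.15 with R1881 (SD, n = 10) and -1.45 ± 0.11 with the combination (SD, n = 5), and its sign was positive in 10 of 10 and negative in 5 of 5 libraries. The difference was -3.24 (exact permutation test, two-sided, p = 0.000666, the smallest that 3003 arrangements of the libraries can give).

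To rank the members among themselves, levels were taken per length, as CPM divided by the length in kilobases of the MANE Select transcript of GENCODE version 44. On this scale the R1881 means were 400.5 for FKBP5, 117 for FKBP4, 108 for FKBP1A, 91.9 for FKBP3, 63.4 for FKBP10, 58.7 for FKBP8, 46.6 for FKBP2, 25.6 for FKBP11, 11.6 for FKBP9 and 4.27 for FKBP14. Among neighbours in this order, the ranges of FKBP4 and FKBP1A, of FKBP1A and FKBP3, of FKBP10 and FKBP8, and of FKBP8 and FKBP2 overlapped between libraries. Within a library, FKBP1A was above FKBP3 and FKBP8 above FKBP2 in 10 of 10. FKBP4 was above FKBP1A and FKBP10 above FKBP8 in 8 of 10. FKBP5 ranked number 123 of 12183 genes with a MANE Select transcript in R1881 cells and number 1580 in combination cells. With the combination the order began with FKBP4 at 112 CPM per kilobase, FKBP1A at 104 and FKBP3 at 85.0, and FKBP5 came sixth at 40.6, below FKBP10 and FKBP8 and above FKBP2. In that order the ranges of FKBP4 and FKBP1A, of FKBP3 and FKBP10, of FKBP10 and FKBP8, of FKBP8 and FKBP5, and of FKBP5 and FKBP2 overlapped. FKBP11 and FKBP9, whose ranges did not overlap with R1881 (25.6 and 11.6), overlapped with the combination (18.0 and 15.7). FKBP11 was still above FKBP9 within 5 of 5 combination libraries.

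Summed over the 10 genes, the level per length was 928 ± 14.2 CPM per kilobase with R1881 (SD, n = 10) and 551 ± 66.8 with the combination (SD, n = 5). FKBP5 made up 43.2% ± 2.89 of the sum with R1881 and 7.47% ± 1.23 with the combination. By library its share was 8.13%, 7.82%, 8.43%, 5.34% and 7.65% in combination replicates 1 to 5 and 36.7% to 46.3% with R1881, so the groups did not overlap. Without FKBP5 the other 9 genes summed to 528 ± 33.6 with R1881 and 511 ± 69.4 with the combination, and here the ranges overlapped (494 to 609 against 447 to 630). Without FKBP8 as well, the remaining 8 summed to 469 ± 18.2 and 445 ± 22.4, and these ranges also overlapped (450 to 509 against 419 to 480). The exact permutation test, two-sided, gave p = 0.572 for the 9 genes and p = 0.0433 for the 8. Neither test was planned beforehand, and a sum depends on the scaling of the library, unlike a ratio or a share. Totals of the deposited values were at most 1.03122e+06 in combination libraries and at least 1.05341e+06 in R1881 libraries. Whether the sums differ with library totals was not tested. The order depends on the length used. By the length of all annotated exons FKBP1A moved from number 3 to number 6 with R1881, and FKBP11 rather than FKBP14 was the lowest in both groups. On that scale the share of FKBP5 was 34.03% with R1881 and 5.11% with the combination.

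**Figure D2:**
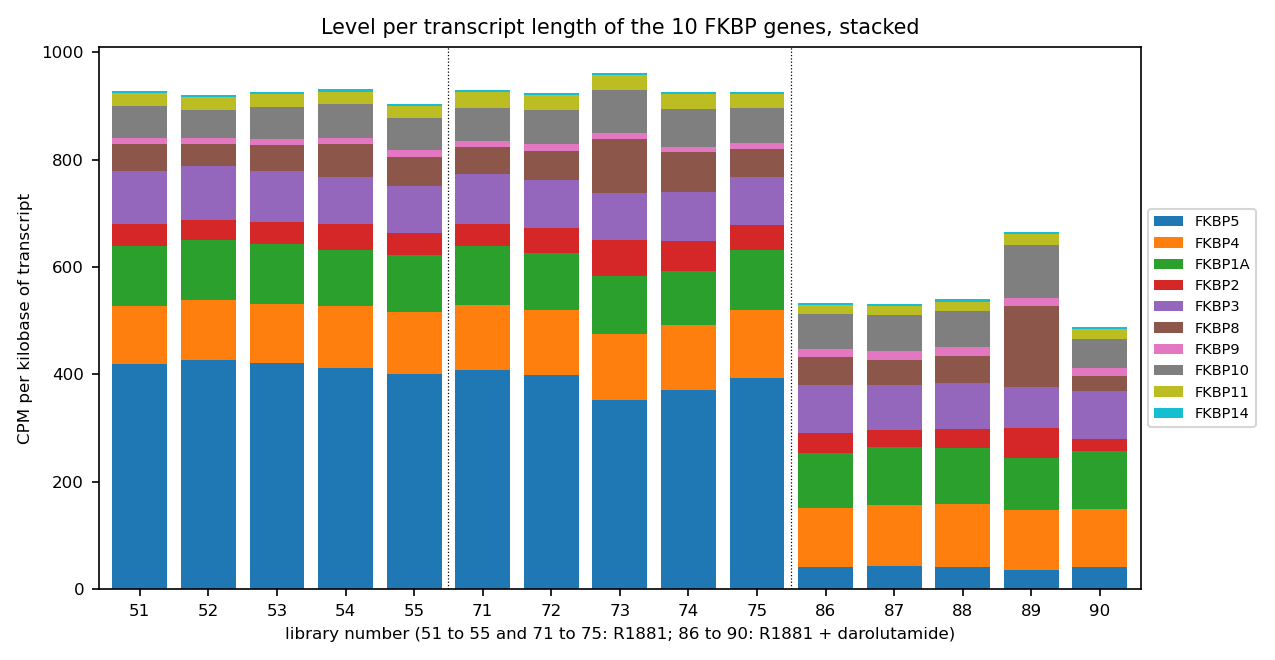
Level of the 10 FKBP genes in CPM per kilobase of MANE Select transcript (vertical axis, from 0), stacked for each of the 15 libraries in order of library number. The FKBP5 part at the base of each bar makes up 36.7% to 46.3% of the bar in libraries 51 to 75 and 5.34% to 8.43% in libraries 86 to 90, and library 89, the tallest of the combination, has the largest FKBP8 and FKBP10 parts of those 5.

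FKBP1A, the FK506 and rapamycin receptor, had a lowest, median and highest value of 150, 165 and 171 CPM with R1881. In combination replicates 1 to 5 it was 162, 155, 164, 147 and 160 CPM. Of the combination libraries, 1 lay below the R1881 range and the other 4 inside it, and the log2 fold change of -0.05 (95% confidence interval -0.12 to 0.02, adjusted p = 0.244 from limma) did not pass the test. With the GC trend removed the same fold change, -0.06, passed (adjusted p = 0.0411). FKBP3, the nuclear member, was called lower by a small margin. Its values were 113, 117 and 131 CPM (lowest, median and highest) with R1881 and 110, 116, 115, 99.9 and 110 CPM in combination replicates 1 to 5. In all, 3 of the 5 combination libraries lay below every R1881 library, and the log2 fold change was -0.11 (95% confidence interval -0.20 to -0.02, adjusted p = 0.0402 from limma). This call was lost in edgeR (adjusted p = 0.0602), in DESeq2 (adjusted p = 0.0813), with reads scaled by library totals (-0.04), against either run of R1881 libraries alone, without combination replicates 3 and 4 together (adjusted p = 0.138), and when any of R1881 replicates 3, 7, 9 and 10 or combination replicates 1, 4 and 5 was left out (log2 fold change -0.13 to -0.08 over all libraries left out).

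FKBP8, the mitochondrial member that binds BCL2, varied more between libraries than any other member. Its lowest, median and highest values were 71.9, 93.7 and 175 CPM with R1881, and it was 80.9, 93.4, 49.4, 263 and 90.1 CPM in combination replicates 1 to 5. The combination held both the lowest and the highest library of all 15, a 5.32-fold range within 1 treatment. The log2 fold change was -0.04 with a standard error of 0.274 (95% confidence interval -0.61 to 0.54, adjusted p = 0.928 from limma), and it changed sign between fits, from -0.39 to 0.21 when libraries were left out. No direction can be given for FKBP8 with these libraries. Its SD within R1881 libraries, 0.36 on the log2 scale, ranked number 268 of 13654 genes, and within the combination, at 0.88, number 160.

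In the ER, FKBP11 fell and FKBP9 rose. FKBP11, a membrane-anchored member found in secretory cells, was 14.95, 17.69 and 20.65 CPM (lowest, median and highest) with R1881 and 12.17, 10.96, 12.54, 14.62 and 12.02 CPM in combination replicates 1 to 5. The groups did not overlap, although the highest combination library was close to the lowest R1881 library. The mean was 70.4% of that with R1881 and the log2 fold change was -0.49 (95% confidence interval -0.66 to -0.31, adjusted p = 0.000127 from limma). FKBP11 also differed between the runs of R1881 libraries, at 15.8 ± 0.628 CPM in libraries 51 to 55 and 19.6 ± 0.873 CPM in libraries 71 to 75 (SD, n = 5 each). This difference of 0.30 passed the same test (adjusted p = 0.0173 from limma), and FKBP11 was the single member called between the runs, where 3.1% of all genes were called (535 genes, and 50 to 949 with 1 library left out). The call of FKBP11 between the runs was lost without R1881 replicate 5, 7 or 10. The fall with the combination was -0.34 against libraries 51 to 55 alone and -0.64 against libraries 71 to 75 alone, and both passed the test.

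FKBP9, an ER member with several FK506-binding domains, was 36.6, 40.5 and 41.8 CPM (lowest, median and highest) with R1881 and 54.8, 52.7, 52.9, 51.1 and 56.9 CPM in combination replicates 1 to 5. All 5 combination libraries lay above all 10 R1881 libraries, and the spread within each group was narrow. The mean was 135% of that with R1881, and the log2 fold change was 0.42 (95% confidence interval 0.34 to 0.51, adjusted p = 8.37e-08 from limma). The runs of R1881 libraries did not differ in FKBP9 beyond their spread (40.0 ± 1.31 and 39.7 ± 2.25 CPM, SD, n = 5 each). FKBP9P1, a pseudogene copy of FKBP9, moved by the same amount, from 19.8 to 26.6 CPM (log2 fold change 0.42, adjusted p = 1.54e-06 from limma). Reads of 50 bases can be shared by a gene and its copy, so which of them rose cannot be told apart.

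FKBP2, a small ER-luminal member, was 21.5, 25.1 and 38.3 CPM (lowest, median and highest) with R1881 and 18.3, 20.8, 12.8, 32.0 and 20.1 CPM in combination replicates 1 to 5. Of the 5 combination libraries, 4 lay below every R1881 library, and the exception was combination replicate 4. The log2 fold change was -0.40 (95% confidence interval -0.73 to -0.06) and missed the threshold by little (adjusted p = 0.0506 from limma). Without combination replicate 4 it was -0.56 and passed (adjusted p = 0.00148), and it also passed without R1881 replicate 10 (-0.43, adjusted p = 0.0407) and without combination replicates 3 and 4 together (-0.41, adjusted p = 0.0109). Without combination replicate 3 it was -0.24 (adjusted p = 0.189) and against libraries 51 to 55 alone -0.27 (adjusted p = 0.269), and neither passed.

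FKBP10, which binds procollagen and is mutated in brittle bone disease, was 137, 161 and 208 CPM (lowest, median and highest) with R1881 and 173, 167, 137, 256 and 173 CPM in combination replicates 1 to 5. Of the combination libraries, 1 lay above the R1881 range and the other 4 inside it. The log2 fold change was 0.12 (95% confidence interval -0.11 to 0.35, adjusted p = 0.392 from limma), and it was -0.01 without combination replicate 4. FKBP14, another collagen-binding member, was the lowest of the 10 per length of MANE Select transcript and stayed within 17.7 to 22.5 CPM in all 15 libraries. Its log2 fold change was -0.06 (95% confidence interval -0.17 to 0.05, adjusted p = 0.364 from limma).

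The 3 members that spread most between combination libraries were the 3 with the highest GC content. The longest annotated transcript of FKBP8 had 66.0% GC, that of FKBP2 61.6% and that of FKBP10 59.2%, against 51.5% in FKBP11 and FKBP9, 51.0% in FKBP4, 46.6% in FKBP1A, 41.8% in FKBP3, 41.5% in FKBP5 and 38.7% in FKBP14. In combination replicate 4, whose GC contrast was 1.06, FKBP8 deviated from its group mean by 1.42, FKBP2 by 0.67 and FKBP10 by 0.53 on the log2 scale, while FKBP5 deviated by -0.19, FKBP14 by -0.20 and FKBP3 by -0.14. In combination replicate 3, with a contrast of -0.65, FKBP8, FKBP2 and FKBP10 deviated by -0.98, -0.62 and -0.37. In R1881 replicate 6 the same 3 genes deviated by 0.81, 0.53 and 0.35. The signs of these deviations followed the sign of the GC contrast in all 3 libraries.

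**Figure D3:**
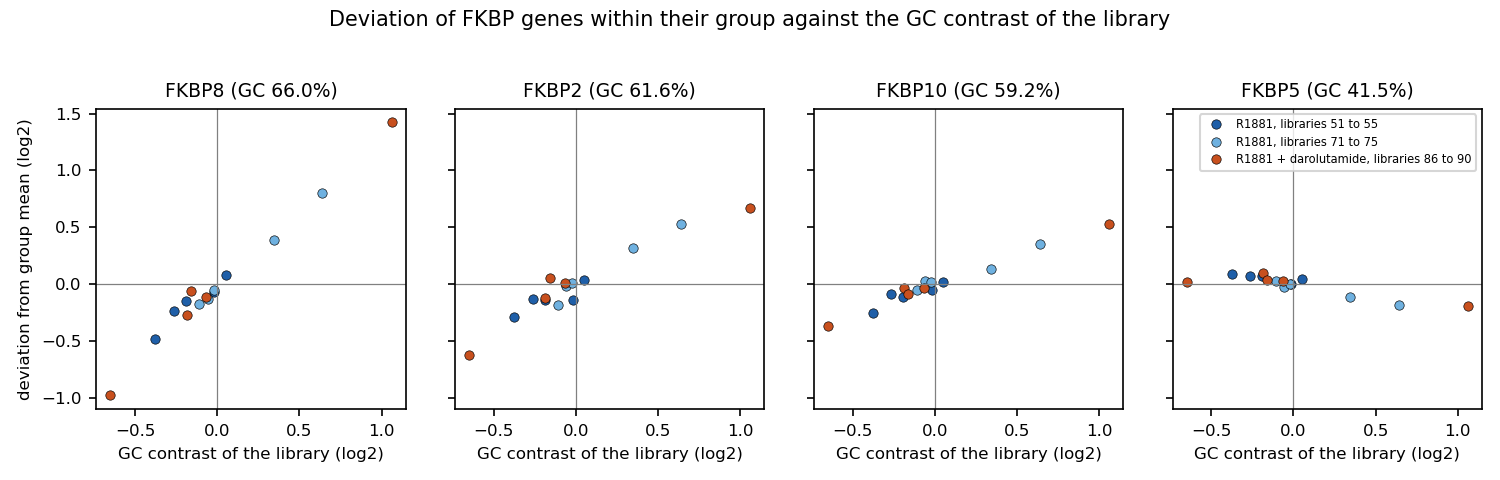
Deviation of FKBP8, FKBP2, FKBP10 and FKBP5 from the mean of their own treatment group (vertical axis, log2 units) against the GC contrast of the library (horizontal axis, log2 units), with 1 point per library coloured by run of library numbers. The point farthest right is combination replicate 4, at a contrast of 1.06 and a deviation of 1.42 for FKBP8, while FKBP5, with a GC content of 41.5%, lies at -0.19 in that library.

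When a smooth trend on GC content was removed from each library (14668 genes with a GC value), 5 members were lower and 2 were higher, against 31.3% lower and 29.7% higher over all genes in that fit. FKBP5 (-3.29), FKBP11 (-0.48), FKBP2 (-0.38), FKBP3 (-0.10) and FKBP1A (-0.06) were the lower ones, and FKBP9 (0.43) and FKBP10 (0.16) were the higher ones. FKBP2 was then 26.3 ± 1.75 CPM with R1881 (SD, n = 10), and in combination replicates 1 to 5 it was 20.1, 22.2, 17.5, 20.2 and 20.8 CPM, all below the lowest R1881 library at 24.04 CPM. FKBP10 was 162 ± 5.57 CPM with R1881 and 181 ± 5.04 CPM with the combination, and its groups no longer overlapped. Over all genes in that fit the combination lay wholly below R1881 in 19.4% and wholly above in 16.1%. The adjusted p from limma was 3.89e-06 for FKBP2 and 2.87e-05 for FKBP10 in this fit. The SD of FKBP8 within the combination dropped from 0.88 to 0.27 on the log2 scale, and its log2 fold change was -0.08 (95% confidence interval -0.25 to 0.10, adjusted p = 0.439 from limma). FKBP4 (-0.06) and FKBP14 (-0.05) did not pass in this fit.

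**Figure D4:**
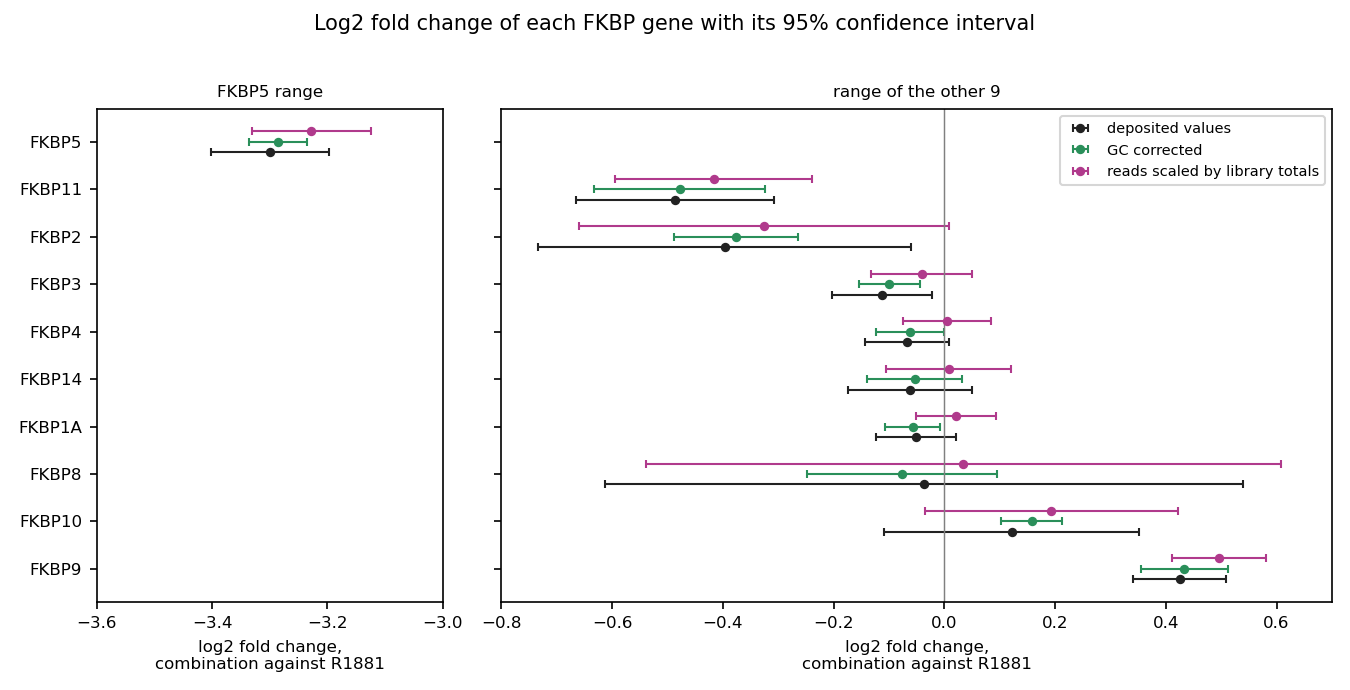
Log2 fold change of each FKBP gene, combination against R1881 (horizontal axis, split so that FKBP5 has its own range), with bars for the 95% confidence interval from limma under 3 scalings. FKBP5, FKBP11 and FKBP9 lie away from 0 under all 3, the GC-corrected bars of FKBP2 and FKBP10 are the shorter ones and exclude 0, and with library totals FKBP4, FKBP1A, FKBP14 and FKBP8 lie on the other side of 0.

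Scaling the recovered reads by library totals moved the median log2 fold change of all genes from 0.00 to 0.07, and the shares of all genes called became 17.5% lower and 30.8% higher. On that scale FKBP5 (-3.23) and FKBP11 (-0.42) were lower, FKBP9 (0.50) was higher and FKBP3 (-0.04, adjusted p = 0.467 from limma) was not called. FKBP4, FKBP1A, FKBP14 and FKBP8, all slightly negative on the deposited scale, came out at 0.00 to 0.03. The directions of FKBP5, FKBP11 and FKBP9 held in every fit that was made.

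Other copies of the members did not pass the test. FKBP1C, a copy of FKBP1A, had a log2 fold change of -0.09, and the copies FKBP4P1, FKBP4P6, FKBP4P7 and FKBP4P8 of FKBP4 had -0.18, -0.13, -0.17 and -0.14. On the opposite strand, PRPF39 overlaps FKBP3 (46.1 CPM with R1881 and 47.6 with the combination) and SDCBP2-AS1 overlaps FKBP1A (5.70 and 8.81 CPM). On the same strand, protein-coding genes that are not in the table overlap FKBP1A, FKBP2 and FKBP11. These overlaps are of whole gene spans, and whether exons overlap was not tested. The kit keeps the strand, but whether the counting used it is not given in the sources used here. Whether reads of these pairs were mixed is therefore not known. Of the rest of the family, 5 of 8 listed genes were in the table. Of these, 1 was lower and none was higher, beside 23.7% lower and 22.8% higher of all genes. The lower one was FKBPL, a further partner of HSP90, with a log2 fold change of -0.33 (adjusted p = 0.00131 from limma), from 7.69 ± 0.840 to 6.004 ± 0.236 CPM.

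Lists of genes that work with the members were set beside them, in the order of the members' roles. In the list of HSP90 and its co-chaperones, where FKBP5 and FKBP4 act, 10 of 19 genes were lower and none was higher, with a median of -0.18. Over all genes 23.7% were lower and 22.8% higher. STIP1, which links HSP70 to HSP90, was at -0.31 and AHSA1, which speeds the ATP cycle of HSP90, at -0.25, while HSP90AA1 (-0.02) and HSP90AB1 (-0.03) did not pass. With library totals this list gave 6 lower and 1 higher of 19, beside 17.5% lower and 30.8% higher of all genes. Of the steroid receptors that FKBP5 and FKBP4 join, NR3C1, the glucocorticoid receptor, was called higher but was near the limit of detection, at 0.141 CPM with R1881 and 0.784 CPM with the combination, and its fold change depended on the pseudocount (0.63 to 1.82). NR3C2, the mineralocorticoid receptor, was at 0.12 and did not pass (adjusted p = 0.245), and PGR was not among the genes analysed here.

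Of the cyclophilins and parvulins, the other families that turn the bond before proline, 5 of 17 were lower and 1 was higher, with a median of -0.03. Over all genes 23.7% were lower and 22.8% higher. With library totals 4 were lower and 4 higher, beside 17.5% and 30.8% of all genes. The lower ones included PPIB (-0.56) and PPIC (-0.42), which lie in the ER as FKBP11 does, and the higher one was PPWD1 (0.22). In the list of ER chaperones and the unfolded protein response, 15 of 18 genes were lower and none was higher, with a median of -0.38. With library totals 14 were lower. This list also differed between the runs of R1881 libraries, which had the same treatment. There 5 of the 18 were called higher in libraries 71 to 75 and none lower, beside 139 of 17272 genes called higher. DNAJB9, a co-chaperone of BiP, was at -1.22 and HERPUD1, which serves ER-associated degradation, at -0.73. The element of the ER stress response (CCAAT and CCACG spaced by any 9 bases) was in the start windows of 7 of 17 genes of this list. None of the 6 members with a window had it, FKBP11 included. It was in 0.0776% of all windows, a share per window and not per gene. The XBP1 core (TGACGTGG) was in 1 of the 17 genes, HYOU1, and in 0.733% of all windows. The heat shock unit (GAANNTTC, N being any base) was in 1, CANX, and in 6.79% of all windows. Neither was in a member.

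Of the collagen-modifying enzymes and chaperones of the ER, among which FKBP10 and FKBP14 work, 5 of 12 were lower and 3 higher, with a median of -0.15. Over all genes 23.7% were lower and 22.8% higher. P4HA1, a subunit of prolyl hydroxylase, was at -0.43 and CRTAP at 0.18. PLOD2, a lysyl hydroxylase, was at -0.91 (0.924 to 0.252 CPM), while SERPINH1, the collagen chaperone HSP47, was at 0.97 (0.841 to 2.12 CPM). Both of these have levels near the pseudocount of 0.5, which shrinks their fold changes. In the list of proteins bound by FKBP1A and FKBP8, 5 of 15 were lower and 3 higher, with a median of -0.12, beside the same shares of all genes. MTOR, the kinase that FKBP1A blocks when rapamycin is present, fell from 145 ± 5.87 to 83.97 ± 3.45 CPM (log2 fold change -0.78, adjusted p = 4.04e-12 from limma). ITPR1, a calcium channel of the ER, was at -0.44, RYR2 at 0.30 and BCL2 at 0.37. FKBP1A and FKBP8 themselves were not called in the same fit.

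**Figure D5:**
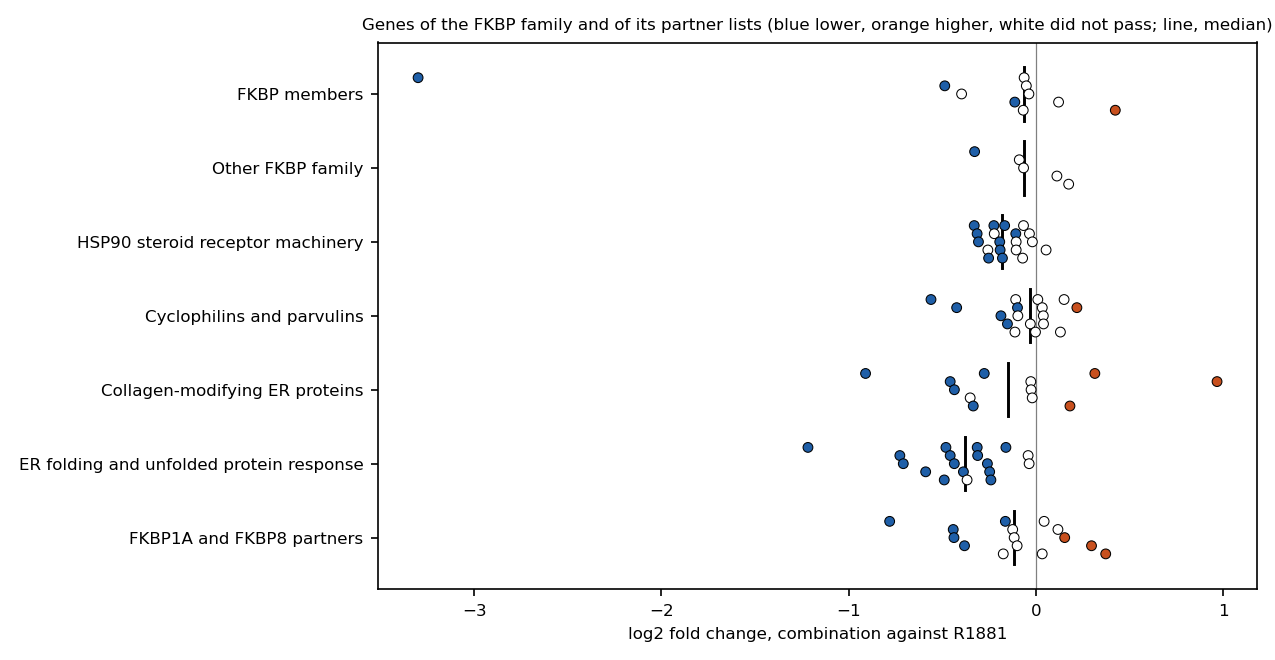
Log2 fold change, combination against R1881 (horizontal axis), of the FKBP members and of the genes in 6 lists of related and partner genes, with 1 point per gene, filled blue where lower and orange where higher at an adjusted p under 0.05, and a line at the median. In the ER list 15 of 18 points are blue with a median of -0.38, and FKBP5 at -3.30 lies farther left than any gene of the lists.

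The genes most like FKBP5 were sought among 15665 genes with a mean of at least 1 CPM, as a description with no test. Over all 15 libraries, which fall into 2 groups by treatment, the highest Pearson correlations on the log2 scale were with SLC16A6, RHOU, NCAPD3, PTPRM and ACSL3 (0.999 each). Their log2 fold changes were -2.67, -1.67, -3.69, -1.45 and -1.98. When each library was expressed as its deviation from its own group mean, the highest correlations with FKBP5 were with MTM1 (0.973), SPIN1 (0.971), CASK (0.970), PAFAH1B1 (0.969) and METAP2 (0.964). These 5, like FKBP5, had a GC content below the median of 47.3% over 13654 genes, from 38.4% in METAP2 to 45.1% in CASK. The points share libraries, depth and the GC contrast given above.

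The labelled cell line was checked against marker lists. All 10 genes of the LNCaP list were in the table, of which 6 were lower and 3 were higher with the combination. Over all genes 23.7% were lower and 22.8% higher. TMPRSS2 was at -1.62 and KRT18 at -1.82, while FOLH1 was at 0.75. Of markers of other cells, 4 of 8 fibroblast genes were in the table and all 4 were higher, with VIM at 0.74 and COL3A1 at 1.92, and their sum was 27.6 to 34.4 CPM with R1881 and 52.7 to 68.6 CPM with the combination. The defining fibroblast genes DCN, PDGFRB, FAP and COL1A2 were not among the genes analysed here. Of 4 basal epithelial genes 2 were in the table, with KRT14 at -0.43 and ITGB4 at 0.96, and of 6 leukocyte and endothelial genes VWF alone was, at 0.50. FKBP9, which fibroblasts also express, was higher in the same libraries as this sum, and the part of these markers in its value was not tested.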

How the data were processed

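RNA was isolated on columns with DNase digestion, and libraries made with a stranded poly-A kit were sequenced as single-end reads of 50 bases. Per the submitters' processing notes, bcl2fastq 2.17, STAR and featureCounts from Subread were used on GRCh38. Versions of the last 3, the annotation and the strand setting are not given in the sources used here. The values the authors deposited are a scaled signal per gene, named CPM: a column is whole read counts over a factor of its own, with totals from 1005403 to 1078567. All values (100%) were whole reads within 0.001 reads after division by the value of 1 read. The depth was 15830745 to 24316740 reads for R1881 and 21870398 to 25317567 for the combination.

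Groups follow the labels. The methods of the paper give the numbers of libraries of the groups the other way round and another unit for the dose of R1881. The 10 genes and the lists were chosen with earlier results of these data known. Since the values are scaled, limma 3.58.1 (R 4.3.3, trend test on log2(CPM + 0.5), no filter, all 17272 genes) was used in place of a count test, with Benjamini-Hochberg adjustment. Alternatives were pseudocounts of 0.1 and 1, a minimum mean of 1 CPM, edgeR 4.0.16 and DESeq2 1.42.0 on the recovered reads, library totals, a GC correction (in each library, a natural spline of 5 degrees of freedom), either run of R1881 libraries, the replicate block and each library left out. Added after seeing the data were the GC correction between the runs of R1881 libraries, replicates 1 to 5 without the pairing, and lengths of all exons. The tests of the sums without FKBP5, and without FKBP5 and FKBP8, were not planned either. The GC content is that of the longest transcript. All 10 members were named. In each other list up to 2 genes of smallest p in each direction, the steroid receptors (1 is not reported here), and the 5 genes most like FKBP5 by each measure were named, and a few further genes (the HSP90 genes, those with larger falls than FKBP5 and the copies) were named after their values were seen. Genes of the Y chromosome and XIST were left out of the search for likeness. Genes, lengths and positions are from GENCODE version 44, and start windows from RefSeq (GRCh38.p14, no entry for FKBP4, FKBP8, FKBP10 and FKBP14). Figures and permutation tests used Python 3.11.15, scipy 1.17.1 and matplotlib 3.10.9.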

Additional observations from a re-analysis of the deposited data

Results flagged for a closer look

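In 5 of 78 groups of libraries tested, the highest or lowest library lay further from the rest of its group than Dixon's critical value allows, where chance alone gives about 1 in 20. Of these, 3 concerned combination replicate 4, the library with a GC contrast of 1.06. FKBP5 was 133.2 CPM in it, the lowest of its group, against 154 to 162 CPM in the other 4. FKBP8 was 262.9 CPM, the highest, against 49.4 to 93.4 CPM. The share of FKBP5 in the summed level per length was 5.34%, against 7.65% to 8.43%. In combination replicate 3, FKBPL had 5.59 CPM, the lowest of its group (others 6.07 to 6.18 CPM). In combination replicate 1, the basal keratin KRT14 had 0.878 CPM, the highest of its group (others 0.528 to 0.607 CPM). With combination replicates 3 and 4 both left out, the log2 fold change of FKBP5 was -3.24 and that of FKBP8 -0.19 (adjusted p = 0.401 from limma).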

How the results depend on the processing

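FKBP5, FKBP11 and FKBP9 kept their direction and their call in every fit of the combination against R1881. The number of members called was 4, and it was 7 with the GC correction and 3 to 4 when 1 library was left out. Over all genes 8044 were called, against 7218 to 8877 with 1 library left out. Between the runs of R1881 libraries 1 member was called, against 2 with library totals and 2 with the GC correction. The last 2 were FKBP4 and FKBP11 (adjusted p = 0.00941 and 0.00343 from limma). Over all genes 535 of 17272 were called between the runs, against 594 of 17272 with library totals and 931 of 14668 with the GC correction. With 1 library left out 0 to 1 member was called, and the call of FKBP11 was lost without R1881 replicates 5, 7 or 10. Fold changes near 0 changed sign. With library totals FKBP4 was at 0.0045, FKBP1A at 0.021, FKBP8 at 0.035 and FKBP14 at 0.0078. FKBP8 was at 0.146 in edgeR, 0.159 in DESeq2 and 0.132 against libraries 51 to 55, and -0.39 to 0.21 with libraries left out. FKBP10 ranged from -0.010 to 0.21 with 1 library left out, and FKBP14 was at 0.016 without combination replicates 3 and 4. Between the runs, the GC correction gave 0.016 for FKBP1A, 0.018 for FKBP3 and 0.075 for FKBP14, and leaving out 1 library gave -0.035 to 0.013 for FKBP1A, -0.031 to 0.016 for FKBP9 and -0.044 to 0.0050 for FKBP14. The cause was not tested.

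Replicate numbers were not taken as pairs, since same-numbered libraries correlated in their deviations by -0.139 to 0.335 and 0 of 5 combination libraries were closest to their own number. With the replicate number as a block (replicates 1 to 5), 3 members were called, against 4 in the same 10 libraries without the pairing, where FKBP4 was called at -0.10 (adjusted p = 0.0425 from limma). FKBP3 was called in neither, at -0.08. Over all genes the counts were 6240 with the block and 6809 without it.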
